A study of Mus musculus with 28 samples.

Results

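The data describe the chromatin at 10 mouse genes of the fibroblast growth factor (FGF) pathway in mesoderm cultures with and without Brg1, the ATPase of the BAF chromatin remodeling complexes. The genes are the ligands *Fgf3*, *Fgf4*, *Fgf5*, *Fgf8*, *Fgf10* and *Fgf15*, the receptor *Fgfr1*, and the feedback inhibitors *Dusp6*, *Spry2* and *Spry4*. They were listed by name, with no threshold on a measured value, and are 10 of 22225 protein-coding genes in the mm9 annotation used. For each gene, enriched ChIP-seq regions were measured within 5 kb of the transcription start site (TSS), in the gene body and within 50 kb of the TSS. The cultures for H3K27ac, H3K27me3 and Suz12 came from *Brg1* f/f;*Actin-CreER* mouse embryonic stem cells (ESCs), in which both *Brg1* alleles are floxed and a Cre recombinase-estrogen receptor fusion is expressed constitutively. Embryoid bodies were kept without serum for 2 days and then induced with VEGF, Activin A and BMP4 for 40 h, and all samples were taken at day 4. At day 2 the cultures received either 200 nM 4-hydroxytamoxifen (4-OHT) in THF, which activates the Cre and deletes *Brg1*, or THF alone (control). There were 2 replicates per condition for H3K27ac and for Suz12, 3 per condition for H3K27me3, and 3 of FLAG-tagged Brg1 in a single condition. The labels assign the FLAG samples to the floxed line, whereas the methods name a separate Brg1-FLAG line, and they describe fewer replicates than the labels do. By the methods, the Brg1-bound regions below thus come from another ESC line than the H3K27ac, H3K27me3 and Suz12 regions.

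FGF ligands bind receptor tyrosine kinases such as Fgfr1 and signal through the Ras and MAP kinase cascade. Dusp6 dephosphorylates Erk, and the Sprouty proteins Spry2 and Spry4 restrain the cascade between the receptor and Erk, and the genes of all 3 are themselves switched on by the signal, so that they act as feedback inhibitors. Fgf8 and Fgfr1 are required for cells to move out of the primitive streak and form mesoderm in the mouse embryo, and Fgf4 and Fgf5 are expressed in early embryonic cells. H3K27ac marks active promoters and enhancers, and H3K27me3 is deposited by Polycomb repressive complex 2, of which Suz12 is a core subunit.

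The 17 lists held positions of regions called over input in each replicate, with no score or read count, so the depth of each library is unknown and a measured value is the number of bases in a window covered by called regions. A difference in covered bases between lists cannot be told apart from a difference in depth or in signal over background, and in these bulk cultures a mark in fewer cells cannot be told apart from less of it per cell. The lists also cannot show the deletion of *Brg1* itself. FLAG replicate 3 stood apart with 192 regions against 8021 and 8257, and H3K27me3 replicate 1 of each condition held narrower regions, with a widest region of 9300 and 7550 bp against 33350 to 94725 bp in the others. In the control lists 7 of 8 mesoderm and primitive streak genes carried H3K27ac within 5 kb of the TSS in both replicates, as did 0 of 3 neural, 1 of 3 endoderm, 2 of 3 pluripotency and 1 of 3 cardiac genes. The 2 pluripotency genes were *Pou5f1* and *Nanog*. H3K27me3 was in all 3 control lists at 4 of the 8 mesoderm and primitive streak genes (*T*, *Eomes*, *Kdr* and *Pdgfra*). It was in all 3 at 3 of 3 neural, 3 of 3 endoderm, 0 of 3 pluripotency and 1 of 3 cardiac genes. With 2 lists against 2 the smallest two-sided p of an exact permutation test is 0.333, and with 3 against 3 it is 0.1, so that no gene could pass a threshold of 0.05. A gene is therefore called lower or higher only as a description, where every 4-OHT list lay below or above every control list.

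In control mesoderm the 10 genes fell into different chromatin states. H3K27ac lay within 5 kb of the TSS in both control lists at 8 of the 10, all but *Fgf3* and *Fgf15*, against 47.7% of all genes. H3K27me3 was called in all 3 control lists at *Fgf3*, *Fgf4* and *Fgf8*, 3 of 10 against 11.7%, and Suz12 in both control lists at *Fgf3*, *Fgf4* and *Fgf15*, 3 of 10 against 5.91%. The receptor, the 3 feedback inhibitors and *Fgf5* had no H3K27me3 and no Suz12 region within 50 kb in any list of either condition. H3K27ac and H3K27me3 were thus both in every control list at *Fgf4*, where they covered different bases, and at *Fgf8*. At *Fgf8* H3K27me3 covered at most 325 bp, and the 25 bp of control replicate 2 overlapped no region of the other controls.

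**Figure D1:**
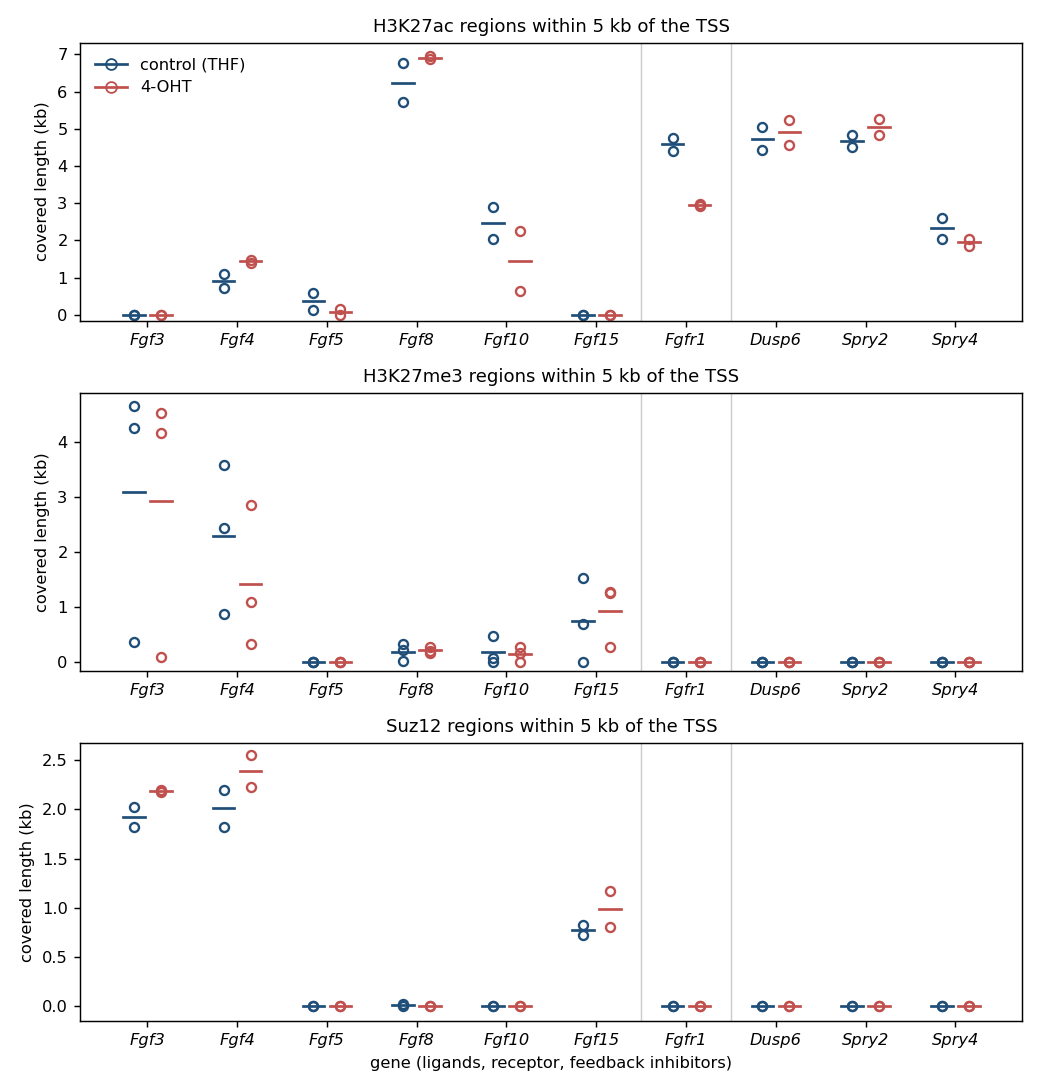
Covered length in kb within 5 kb of the TSS for H3K27ac, H3K27me3 and Suz12 (y axes) at the 10 genes (x axes); each circle is 1 library, blue for control and red for 4-OHT, and each bar is the mean of its condition. *Fgfr1* is the gene whose H3K27ac circles are lower without overlap, and H3K27me3 and Suz12 lie at the ligand genes only.

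After 4-OHT, H3K27ac overlapped the control values within 5 kb of most of these TSSs, and fewer genes overlapped over 50 kb. Within 5 kb, 1 of the 8 genes with any H3K27ac was lower in both 4-OHT lists (*Fgfr1*), against 12.5% of all genes with any, and 2 were higher (*Fgf4* and *Fgf8*), against 39.8%. Within 50 kb, 4 of 10 were lower (*Fgf3*, *Fgf4*, *Spry4* and *Fgfr1*), against 20%, and 2 were higher (*Fgf8* and *Spry2*), against 39.5%. The median difference, 4-OHT minus control, was -62.5 bp within 5 kb where that of all genes was 112.5 bp, and -762.5 bp within 50 kb where that of all genes was 162.5 bp. *Fgf3* and *Fgf4* share most of their 50 kb windows and are not independent. The counts rest on few lists: leaving out control replicate 1 or 4-OHT replicate 2 gave 3 lower genes within 5 kb and 7 within 50 kb, leaving out control replicate 2 or 4-OHT replicate 1 gave 2 lower genes within 5 kb, and leaving out either of those 2 lists gave 4 higher genes within 5 kb. Shares over all genes are not given for these settings.

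**Figure D2:**
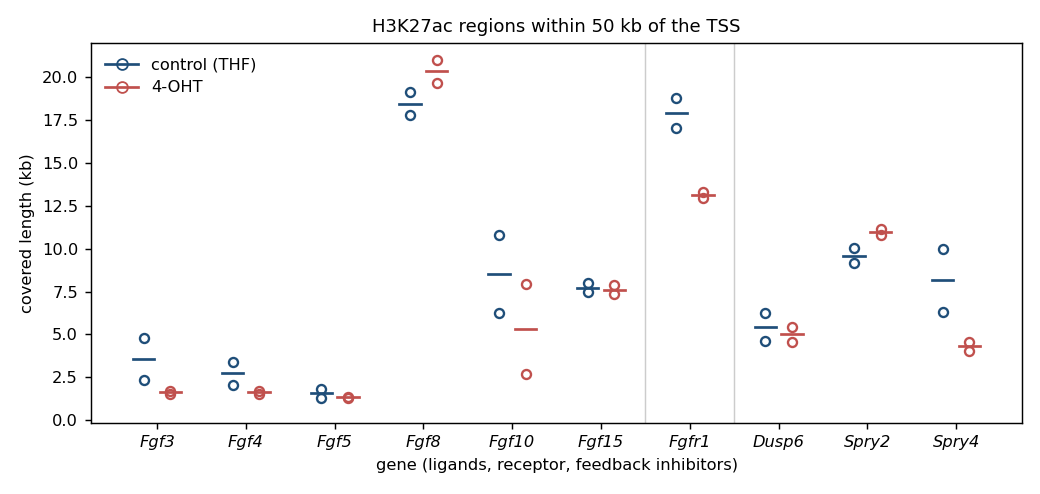
Covered length of H3K27ac in kb within 50 kb of the TSS (y axis) at the 10 genes (x axis); each circle is 1 library, blue for control and red for 4-OHT, and each bar is the mean of its condition. *Fgf8* and *Spry2* are higher without overlap after 4-OHT, and *Fgf3*, *Fgf4*, *Fgfr1* and *Spry4* are lower.

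Brg1-bound regions, defined as merged FLAG regions called in at least 2 of the 3 replicates, lay within 5 kb of the TSS of 3 of the 10 genes (*Fgf8*, *Spry2* and *Fgfr1*) against 2.12% of all genes, and within 50 kb of 6 (*Fgf5*, *Fgf8*, *Fgf10*, *Spry2*, *Spry4* and *Fgfr1*) against 9.37%. FLAG replicate 3 had no region within 50 kb of any of the 10, so these counts rest on replicates 1 and 2 together and are 0 without either of them. Within 5 kb the calls of replicates 1 and 2 covered 50 and 450 bp at *Fgf8* and 275 and 25 bp at *Spry2*. At *Fgfr1* they covered 625 and 725 bp. The sites at *Fgf8* and *Spry2* thus rest on a short call in 1 of the replicates. There were 16 Brg1-bound regions in all, 14 of them distal, meaning over 2.5 kb from every annotated TSS, and 14 overlapped H3K27ac in both control lists. *Dusp6* had FLAG regions of replicate 1 (800 bp wide) and of replicate 2 (75 and 25 bp) within 2.5 kb upstream of its TSS, but they did not overlap each other. At *Fgf10* the FLAG regions of the replicates at the promoter likewise lay side by side.

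The sequences below are 300 bases at the centre of 4 Brg1-bound regions, printed because they carry the contrast described in the next paragraphs, where H3K27ac around them was no longer called (*Fgfr1*), was lower (*Fgf10* and *Fgf8*) or was higher (*Spry2*) after 4-OHT. All are mm9, plus strand, 5′ to 3′, and capitals mark the GATA word AGATAAG or its reverse complement. The *Fgfr1* region is intergenic, 38.2 kb upstream of the TSS, at chr8:26590926-26591225. Its FLAG calls covered only 25 bp in replicate 1 and 200 bp in replicate 2. The *Fgf10* region lies in an intron 44 kb downstream of the TSS, at chr13:119547326-119547625. The *Fgf8* region is intergenic, 8.35 kb beyond the TSS and past the 3′ end of the gene, at chr19:45808863-45809162. The *Spry2* region is intergenic, 24 kb upstream, at chr14:106319851-106320150.
Fgfr1 upstream: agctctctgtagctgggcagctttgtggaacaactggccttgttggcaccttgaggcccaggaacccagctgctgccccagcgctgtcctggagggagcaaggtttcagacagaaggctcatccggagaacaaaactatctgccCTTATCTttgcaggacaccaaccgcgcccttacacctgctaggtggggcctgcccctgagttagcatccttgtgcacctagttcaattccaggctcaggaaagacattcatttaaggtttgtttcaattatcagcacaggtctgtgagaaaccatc
Fgf10 intron: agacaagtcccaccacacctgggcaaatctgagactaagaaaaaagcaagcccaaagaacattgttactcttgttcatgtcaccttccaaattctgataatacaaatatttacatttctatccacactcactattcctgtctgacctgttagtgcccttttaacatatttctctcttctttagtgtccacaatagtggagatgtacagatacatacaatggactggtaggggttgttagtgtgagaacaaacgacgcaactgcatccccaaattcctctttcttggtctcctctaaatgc
Fgf8 downstream: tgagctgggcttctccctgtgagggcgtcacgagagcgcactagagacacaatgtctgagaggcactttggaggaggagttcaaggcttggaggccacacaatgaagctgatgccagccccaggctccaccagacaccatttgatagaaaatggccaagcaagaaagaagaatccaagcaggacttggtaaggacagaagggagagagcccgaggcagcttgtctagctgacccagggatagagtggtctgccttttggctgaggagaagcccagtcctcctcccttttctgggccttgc
Spry2 upstream: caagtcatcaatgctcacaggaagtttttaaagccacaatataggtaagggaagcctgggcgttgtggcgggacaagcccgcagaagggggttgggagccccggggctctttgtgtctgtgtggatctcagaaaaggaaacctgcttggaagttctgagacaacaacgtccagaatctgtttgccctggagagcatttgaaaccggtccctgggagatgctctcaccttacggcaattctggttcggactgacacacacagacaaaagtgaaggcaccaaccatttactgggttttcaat

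Their GC contents were 53%, 40.3%, 55.3% and 50.7%, with 4, 2, 4 and 8 CG dinucleotides. Exact words for 6 kinds of factor were searched on both strands of the central 300 bases of all 2390 Brg1-bound regions, and no word was part of another. The GATA word was AGATAAG and the T-box word AGGTGTGA. For ETS factors CCGGAAGT was searched, for TCF/LEF factors CTTTGATC and for Foxh1 AATCCACA. For other Fox factors the word was TGTTTAC. The GATA word occurred in 2 of the 16 regions near the 10 genes, the *Fgfr1* region above and 1 region downstream of *Spry4*, and in 5.77% of all Brg1-bound regions. The other 5 words occurred in none of the 16, and in 1.76% (T-box), 0.418% (ETS), 1.55% (TCF/LEF), 1.67% (Foxh1) and 5.06% (Fox) of all. These are matches of letters only.

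*Fgf8* (chr19:45811288-45817405, minus strand), the ligand required for gastrulation movements, had the longest H3K27ac coverage of the 6 ligands within 5 kb and within 50 kb of the TSS, and was higher after 4-OHT in both windows. Within 5 kb of the TSS the control lists covered 5713 and 6763 bp and the 4-OHT lists 6863 and 6963 bp. The conditions did not overlap, with a mean of 6238 ± 742 bp in the controls and 6913 ± 70.7 bp after 4-OHT (SD, n = 2 each; exact two-sided permutation p = 0.333). Within 50 kb the values were 17800 and 19125 bp in the controls and 19675 and 21025 bp after 4-OHT, again without overlap. The direction was not shared by all regions of the locus. The region over the TSS was wider, with 2350 and 2700 bp in the controls and 3775 and 3425 bp after 4-OHT, and the upstream region that holds the Brg1-bound site 2.91 kb before the TSS covered 2500 and 2575 bp in the controls and 2625 and 2650 bp after 4-OHT. The downstream region around the other Brg1-bound site was slightly lower, with 6200 and 6525 bp in the controls and 5625 and 6100 bp after 4-OHT. Further downstream, 17.2 kb from the TSS, a region without Brg1 was also lower, with 1150 and 1500 bp in the controls against 50 and 1075 bp. Part of the 50 kb window belongs to the neighbouring genes *Mgea5* and *Npm3*, and regions on that side add to its higher total. The region 7.01 kb upstream covered 2100 and 2700 bp in the controls and 2800 and 3300 bp after 4-OHT. At the *Mgea5* promoter, 40.5 kb upstream, the values were 2100 and 1975 bp against 2525 and 2400 bp. Smaller regions 16 and 16.8 kb upstream, in *Mgea5*, were also higher, and those 8.76 and 47.8 kb upstream were lower. H3K27me3 covered 225, 25 and 325 bp in the controls and 275, 200 and 175 bp after 4-OHT, which overlapped.

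*Fgf10* (chr13:119458598-119580922, plus strand), a ligand of mesodermal tissues known for limb and lung budding, had fewer covered bases after 4-OHT in means, but the conditions overlapped within 5 kb and within 50 kb. Within 5 kb of the TSS H3K27ac covered 2050 and 2895 bp in the controls and 650 and 2250 bp after 4-OHT. Within 50 kb it covered 6225 and 10800 bp in the controls and 2675 and 7925 bp after 4-OHT, and in both windows 4-OHT replicate 2 lay above control replicate 1. The 4 Brg1-bound regions of the locus sat together in an intron 44 to 47.1 kb downstream of the TSS, within 3 H3K27ac regions. The region around the site at 44 kb covered 1375 and 1525 bp in the controls and 950 and 1300 bp after 4-OHT, and the next, at 45 kb, covered 825 and 975 bp in the controls and 175 and 650 bp after 4-OHT. Both were lower without overlap, whereas the third, with 925 and 1525 bp against 600 and 1325 bp, overlapped.

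*Fgf5* (chr5:98683203-98706049, plus strand), a ligand of the epiblast, carried little H3K27ac. A 200 bp region just downstream of its TSS was called in both control lists (200 and 125 bp) and in neither 4-OHT list. Over the full 5 kb on each side the values were 600 and 125 bp in the controls and 150 and 0 bp after 4-OHT and overlapped. The larger part of the H3K27ac within 50 kb was a region 39.3 kb downstream, with 1225 and 775 bp in the controls and 1150 and 1375 bp after 4-OHT. The Brg1-bound region of the locus, 29.4 kb downstream at chr5:98712526-98712750, overlapped no H3K27ac region of any list.

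**Figure D3:**
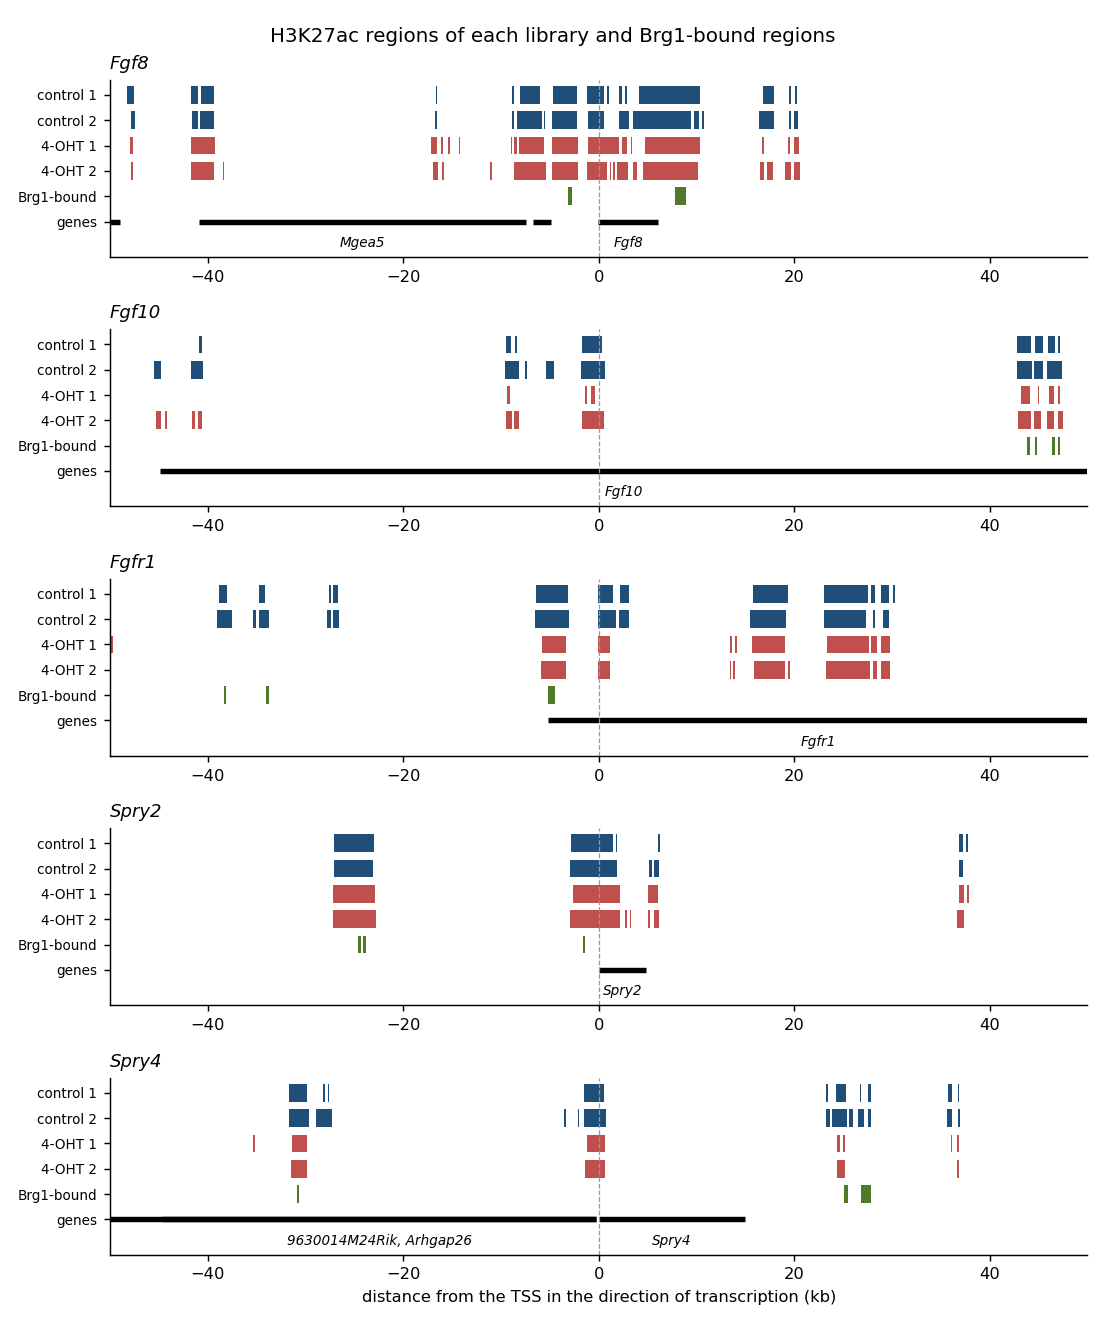
Positions of H3K27ac regions in each control (blue) and 4-OHT (red) library and of Brg1-bound regions (green), against distance from the TSS in kb in the direction of transcription (x axis), with protein-coding genes in black and the shortest regions drawn slightly wider than scale. Blue blocks upstream of *Fgfr1* and downstream of *Spry4* have no or few red counterparts, while the block about 25 kb upstream of *Spry2* is present in all 4 libraries.

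*Fgf3* (chr7:152023988-152030341), *Fgf4* (chr7:152047291-152051148) and *Fgf15* (chr7:152082437-152086858), all on the plus strand, form a ligand cluster in which the TSS of *Fgf4* lies 22.8 kb from that of *Fgf3* and 35.1 kb from that of *Fgf15*. *Fgf4* supports the early embryo, and *Fgf3* and *Fgf15* are known from inner ear and hindbrain development. All 3 carried Suz12 at the promoter, in separate domains. At *Fgf3* Suz12 covered 2025 and 1825 bp within 5 kb in control and 2200 and 2175 bp after 4-OHT. At *Fgf4* it covered 1825 and 2200 bp in the controls and 2225 and 2550 bp after 4-OHT. At *Fgf15* it covered 825 and 725 bp in the controls and 800 and 1175 bp after 4-OHT. The conditions did not overlap at *Fgf3* and *Fgf4* and overlapped at *Fgf15*. Of the 4 genes with any Suz12 within 5 kb, 2 were thus higher after 4-OHT, against 32.1% of all genes with any, and 0 lower, against 5.8%. Within 50 kb *Fgf3*, *Fgf4* and *Fgf15* were higher, 3 of 4 against 30.1%, and 0 were lower, against 5.52%, and these 3 windows share bases. The differences were small, with mean ratios of 4-OHT to control within 5 kb of 1.14 at *Fgf3* and 1.19 at *Fgf4* (exact two-sided permutation p = 0.333 at each, n = 2 each). They did not hold against the size of the lists: with covered bases divided by the total of each list, 0 of the 4 genes were higher within 5 kb and 1, *Fgf15*, within 50 kb, and the shares over all genes were 31% higher and 13% lower within 5 kb and 28.6% higher and 14.2% lower within 50 kb. The fourth gene with any Suz12 was *Fgf8*, whose only call was 25 bp in control replicate 1. Leaving out control replicate 2 made *Fgf8*, and none of the 3 cluster genes, lower in each window.

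H3K27me3 at these 3 genes varied far more between replicates than between conditions. At *Fgf3* it covered 375, 4250 and 4650 bp within 5 kb in control replicates 1, 2 and 3 and 100, 4150 and 4525 bp after 4-OHT. At *Fgf4* it covered 875, 3575 and 2425 bp in the controls and 325, 2850 and 1100 bp after 4-OHT. At *Fgf15* it covered 0, 1525 and 700 bp in the controls and 275, 1275 and 1250 bp after 4-OHT. Replicate 1 was the lowest of each condition at every one of the 3. No gene of the 10 had H3K27me3 lower or higher without overlap, 0 of the 5 with any, where 12% of all genes with any were lower and 0.194% higher within 5 kb and 15.5% lower and 0.166% higher within 50 kb. Divided by the total of each list, 5.83% of all genes were lower and 4.77% higher within 5 kb, 7.63% and 3.35% within 50 kb, and still none of the 10. When same-numbered replicates were compared as pairs, with the replicate number as a replicate block, *Fgf3* and *Fgf4* were lower in all 3 pairs within 5 kb, as were 43.8% of all genes with any, and *Fgf3*, *Fgf4* and *Fgf15* within 50 kb, as were 48.7%. Without replicate 1 of the controls, or of both conditions, 1 gene was lower within 50 kb. The median H3K27me3 difference over the 5 genes was -33.3 bp within 5 kb where that of all genes was -267 bp, and -675 bp within 50 kb where that of all genes was -342 bp. For Suz12 the median over 4 genes was 237.5 bp within 5 kb where that of all genes was 112.5 bp, and 612.5 bp within 50 kb where that of all genes was 100 bp.

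**Figure D4:**
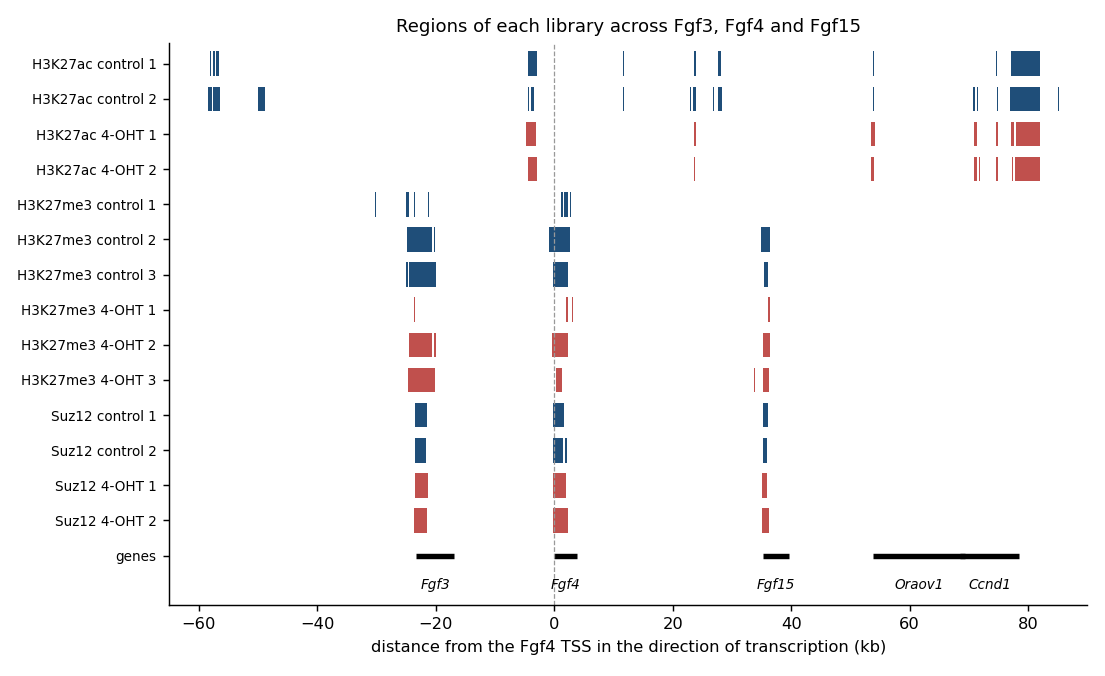
Called regions of H3K27ac, H3K27me3 and Suz12 in each control (blue) and 4-OHT (red) library across the *Fgf3*, *Fgf4* and *Fgf15* genes (black), against distance from the *Fgf4* TSS in kb (x axis), with the shortest regions drawn slightly wider than scale. Suz12 lies at each of the 3 promoters in every library, the H3K27ac region 3.7 kb before *Fgf4* is present in all 4 H3K27ac libraries, and those 27.9 kb after it are present in the 2 controls only.

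H3K27ac around the cluster lay between the genes rather than on their promoters. The region closest to a TSS, 3.7 kb upstream of *Fgf4* at chr7:152042826-152044350, covered 1100 and 725 bp in the controls and 1325 and 1475 bp after 4-OHT and was higher without overlap. Within 5 kb of the *Fgf4* TSS the values were 1100 and 725 bp in the controls and 1400 and 1475 bp after 4-OHT. Of the more distant regions between and around the 3 ligand genes, several were lower. A pair of regions 35.4 and 34.2 kb upstream of *Fgf3* covered 250 and 675 bp, and 625 and 1175 bp, in the control lists and were called in neither 4-OHT list. A region 27.9 kb downstream of *Fgf4* and 7.25 kb upstream of *Fgf15* (chr7:152074851-152075525) covered 600 and 650 bp in the controls and 0 bp after 4-OHT, and a small one 11.6 kb downstream of *Fgf4* covered 50 and 150 bp in the controls and 0 bp after 4-OHT. Over 50 kb *Fgf3* had 2350 and 4776 bp in the controls and 1525 and 1725 bp after 4-OHT, and *Fgf4* had 2075 and 3400 bp in the controls and 1525 and 1725 bp after 4-OHT. The 50 kb window of *Fgf15* held 7450 and 8012 bp in the controls and 7350 and 7875 bp after 4-OHT, most of it the promoter of *Ccnd1*, the cyclin D1 gene. Towards *Ccnd1*, a region in *Oraov1* 18.7 kb downstream of the *Fgf15* TSS was higher, with 225 and 150 bp in the controls and 675 and 575 bp after 4-OHT, as was one in *Ccnd1* 35.9 kb downstream, with 0 and 225 bp against 450 and 575 bp. The broad region over the *Ccnd1* promoter, 44.3 kb downstream, was lower, with 4975 and 5175 bp in the controls and 4525 and 4600 bp after 4-OHT. No Brg1-bound region lay within 50 kb of these 3 TSSs, although single FLAG lists had regions of 25 to 225 bp there around the ligand genes and of up to 200 bp at *Ccnd1*.

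*Fgfr1* (chr8:26624126-26686186, plus strand), the FGF receptor of early mesoderm, was the gene of the 10 with lower H3K27ac in both windows. Within 5 kb of the TSS H3K27ac covered 4412 and 4762 bp in the controls and 2987 and 2937 bp after 4-OHT, a mean of 4587 ± 247 bp against 2962 ± 35.4 bp (SD, n = 2 each; exact two-sided permutation p = 0.333) and a ratio of 0.646. Within 50 kb it covered 17050 and 18775 bp in the controls and 13325 and 12950 bp after 4-OHT, a ratio of 0.733. The 4-OHT lists lay close together and below both controls in each window.

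Regions at *Fgfr1* that both control lists and no 4-OHT list held lay upstream and close to the TSS, while the broad regions further inside the gene were called in all 4 lists. Of 11 H3K27ac regions called in both control lists within 50 kb, 8 were lower in both 4-OHT lists, where 40.5% of all such regions of the genome were. Requiring both control lists by itself favours lower. The 4 intergenic regions upstream were called in both controls and in neither 4-OHT list. They lay 38.3 kb upstream (chr8:26590251-26591750, 775 and 1500 bp in the controls), 34.3 kb upstream (chr8:26594501-26595500, 625 and 1000 bp), 27.6 kb upstream (25 and 400 bp) and 26.8 kb upstream (chr8:26602126-26602750, 500 and 625 bp). The 2 most distant hold Brg1-bound sites, and the sequence of the most distant is the one printed above. An intronic region 2.61 kb downstream of the TSS covered 975 bp in each control list and 0 bp after 4-OHT. The region that holds the third Brg1-bound site, 4.81 kb before the TSS used and over an annotated upstream start of the gene, was kept but narrower, with 3275 and 3475 bp in the controls and 2525 and 2600 bp after 4-OHT. The broad intronic region 17.4 kb downstream of the TSS was also lower, with 3650 and 3750 bp in the controls and 3325 and 3225 bp after 4-OHT. The broad intronic region 25.4 kb downstream covered 4450 and 4325 bp in the controls and 4325 and 4500 bp after 4-OHT and overlapped, and the one 29.3 kb downstream was higher, with 800 and 525 bp against 875 and 875 bp.

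The 3 feedback inhibitor genes kept H3K27ac at their promoters and differed in their distal regions. *Dusp6* (chr10:98725865-98730122, plus strand), which encodes the Erk phosphatase, had 4425 and 5050 bp within 5 kb in control and 4575 and 5225 bp after 4-OHT. Within 50 kb it had 4600 and 6225 bp in the controls and 4575 and 5425 bp after 4-OHT. The conditions overlapped in both windows, and nearly all of the coverage was 1 region over the promoter.

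*Spry2* (chr14:106291166-106296036, minus strand) had as much or more H3K27ac after 4-OHT. Within 5 kb the values were 4500 and 4825 bp in the controls and 4825 and 5250 bp after 4-OHT, which touched at 4825 bp, and with covered bases divided by the total of each list *Spry2* was higher without overlap. Within 50 kb they were 9175 and 10025 bp in the controls and 10825 and 11175 bp after 4-OHT, a mean of 9600 ± 601 bp against 11000 ± 247 bp (SD, n = 2 each; exact two-sided permutation p = 0.333). The distal region 25 kb upstream (chr14:106318801-106323250), which holds 2 Brg1-bound sites, covered 4100 and 4000 bp in the controls and 4300 and 4450 bp after 4-OHT. The promoter region with the other Brg1-bound site, 1.5 kb upstream of the TSS, covered 4500 and 4825 bp in the controls and 4825 and 5075 bp after 4-OHT. No H3K27ac region of both controls at this locus was lower after 4-OHT, where 40.5% of all such regions of the genome were.

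*Spry4* (chr18:38745922-38760922, minus strand) had less distal H3K27ac after 4-OHT. Within 5 kb H3K27ac covered 2050 and 2600 bp in the controls and 1850 and 2050 bp after 4-OHT, which met at 2050 bp. Within 50 kb it covered 6325 and 9975 bp in the controls and 4050 and 4550 bp after 4-OHT, a ratio of 0.528, without overlap. Of 9 regions called in both controls 8 were lower after 4-OHT, where 40.5% of all such regions of the genome were. Downstream of the gene the regions 27.7 kb (325 and 300 bp), 26.8 kb (100 and 525 bp) and 23.4 kb (150 and 375 bp) from the TSS were called in the controls only, and the region between them at 24.6 kb covered 1025 and 1575 bp in the controls and 500 and 825 bp after 4-OHT. Of these 4 regions 3 overlapped Brg1-bound sites, those at 27.7 and 26.8 kb the same site. The Brg1-bound region 30.8 kb upstream of *Spry4*, in an intron of the overlapping genes *9630014M24Rik* and *Arhgap26*, lay in an H3K27ac region of 1850 and 2000 bp in the controls and 1450 and 1625 bp after 4-OHT. A nearby region 28.1 kb upstream, close to another annotated TSS, covered 275 and 1675 bp in the controls and 0 bp after 4-OHT.

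Over all 10 loci, 54 different H3K27ac regions were called in both control lists within 50 kb of a TSS, and 29 of them were lower in both 4-OHT lists where 40.5% of all 26203 such regions of the genome were, and 11 were higher where 24.3% were. Of the 14 that overlapped a Brg1-bound region 10 were lower, against 69.5% of 1505 in the genome, and 2 were higher, against 7.11%. The 2 were the upstream region of *Fgf8* and the distal region of *Spry2*. Among the 10 lower regions, 2 at *Spry4* overlapped the same Brg1-bound site. Regions were required to be in both control lists, which by itself favours lower over higher, for these loci as for the genome. Of 36 distal regions 11 overlapped no 4-OHT region, a share of 30.6% (exact 95% binomial interval 16.3 to 48.1%, counting error only) against 33.1% of 13914 distal regions in the genome. The interval treats the 36 regions as independent, which neighbouring regions read from the same lists are not. It does not measure the spread between replicates. The 11 lay at the *Fgf3*, *Fgf4* and *Fgf15* cluster, at *Fgfr1* and at *Spry4*. Without control replicate 1 the share was 46.3%, and 54.4% in the genome.

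**Figure D5:**
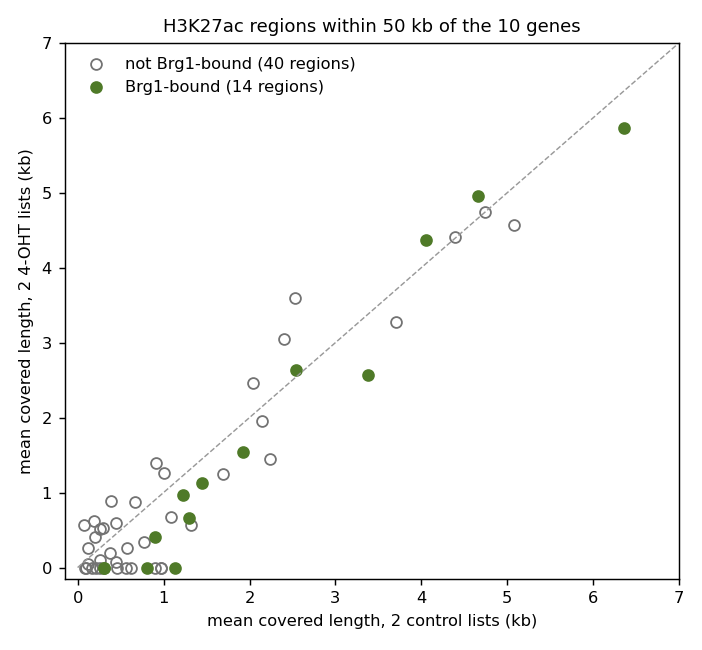
Mean covered length of each of the 54 H3K27ac regions in kb in the 2 control lists (x axis) and the 2 4-OHT lists (y axis); filled green points overlap a Brg1-bound region and the dashed line marks equal values. Of the 14 Brg1-bound regions 10 were lower in both 4-OHT lists, and regions that were no longer called lie at 0 on the y axis.

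Of 36 further FGF pathway genes 35 were in the annotation, and Brg1-bound regions came within 5 kb of the TSS at 9 of them, against 2.12% of all genes. The 9 included all 4 listed target transcription factors, *Etv1*, *Etv4*, *Etv5* and *Egr1*, 3 of 7 feedback inhibitors (*Spred1*, *Spred2* and *Dusp4*), 1 of 16 ligands (*Fgf6*) and 1 of 6 receptors and co-receptors (*Fgfr2*), and these names were taken after the values were seen. H3K27ac within 5 kb was present in both controls at 18 of the 35, against 47.7% of all genes. Of the 18 with any H3K27ac, 4 were lower after 4-OHT, against 12.5%, and 5 higher, against 39.8%. *Etv4*, an ETS factor induced by FGF signaling, had 2175 and 2400 bp in the controls and 1500 and 1150 bp after 4-OHT, and *Fgf6* had 825 and 950 bp in the controls and 0 bp in both 4-OHT lists. *Dusp4*, a MAP kinase phosphatase, was higher, with 5575 and 5500 bp in the controls and 6050 and 6175 bp after 4-OHT, as was the ligand *Fgf18*, with 625 and 600 bp against 1125 and 1175 bp. H3K27me3 was in all 3 controls at 12 of the 35, against 11.7%, and of the 17 with any it was lower at 1, against 12%, and higher at 0, against 0.194%. The lower gene was *Fgfr2*, which had 3046, 4071 and 3646 bp in the controls and 325, 1200 and 500 bp after 4-OHT. Suz12 was in both controls at 8 of the 35, against 5.91%, and of the 11 with any it was lower at 0, against 5.8%, and higher at 6, against 32.1%. Among the 6 were *Fgfr2*, with 100 and 225 bp in the controls and 1150 and 1375 bp after 4-OHT, and *Fgf2*, with 0 bp in both controls and 650 and 900 bp after 4-OHT. At *Fgfr2* H3K27me3 and Suz12 therefore differed in opposite directions. The smallest of the 6 Suz12 differences was 37.5 bp in means. Whether the 6 hold with covered bases divided by the total of each list was not tested.

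The 300 bases upstream of the TSSs of the 10 genes held 13 (*Fgf3*) to 34 (*Fgf8*) CG dinucleotides, all above the median of 10 over all 22225 genes. The 3 genes with Suz12 in both controls, *Fgf3*, *Fgf4* and *Fgf15*, held 13, 24 and 15, and the 5 without H3K27me3 or Suz12 within 50 kb, *Fgf5*, *Fgfr1*, *Dusp6*, *Spry2* and *Spry4*, held 32, 14, 17, 32 and 23. The counts of the 2 sets overlapped.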

How the data were processed

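The authors aligned ChIP-seq reads to mm9 (Bowtie per the submitters' notes, version not given in the sources used here) and deposited 1 list of enriched regions per replicate, found by comparing the ChIP with its input under a Poisson model. FLAG regions had to pass 1e-06 and at least 2-fold over input, and all other regions 1e-12. Deposited values are region positions only, on a 25 bp grid, with no score. The 11 input samples were not analysed here.

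Covered bases were summed per window with Python 3.11.15, NumPy 2.4.6 and SciPy 1.17.1, using GENCODE genes on NCBIM37 (mm9), with 1 TSS per gene, the start of the transcript with the longest coding sequence. Calls used no overlap between conditions and, per gene, exact two-sided permutation tests. The calculation was tested on simulated regions. All 10 genes are named, and of the other FGF pathway genes at most 2 per mark and direction with the largest difference. Members, lists and tests were chosen with earlier results of these data known. Samples were grouped by their labels, which do not say which replicates came from separate cultures, and the methods state that conditions were compared within a differentiation. Replicate numbers come from the labels. Deviations of same-numbered H3K27me3 lists from their condition means correlated across 4131 genes at 0.911, 0.823 and 0.768. Replicates 2 and 3 of opposite conditions also correlated, at 0.591 and 0.655, and replicate 1 of each condition held narrower regions. Pairing by culture therefore cannot be told apart from a shared trait of the lists. For H3K27ac and Suz12 (2 pairs each) the labels share only a number, and the deviations of same-numbered lists correlated at 0.442 and 0.507. With 2 lists per condition the other pairing gives -0.442 and -0.507 by construction. Alternatives were other TSSs, windows, widths, scalings, joined regions, equal region numbers, pairing and each replicate left out.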

Additional observations from a re-analysis of the deposited data

How the results depend on the processing

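Of 168 alternative values 138 stayed within 1.5 times the reported count or, for the share of distal regions, within its interval. The reported count was 0 for lower and higher H3K27me3 and for lower Suz12 in both windows. There only a value of 0 counted as staying, and such values make up much of the 138. The 138 therefore says little about the other counts. The interval is wide, and a share of 46.3% counted as staying. Leaving out 1 list at a time gave 2 to 3 genes with lower H3K27ac within 5 kb and 2 to 4 with higher, 4 to 7 with lower H3K27ac within 50 kb, 0 to 1 with lower H3K27me3 within 50 kb, 0 to 1 with lower Suz12 in either window, 0 to 3 genes Brg1-bound within 5 kb, 0 to 6 within 50 kb, and 31 to 46.3% of distal regions lost. Leaving out replicate 1 of both H3K27me3 conditions, chosen after seeing the data, gave 1 gene with lower H3K27me3 within 50 kb. With the replicate block (every same-numbered pair in 1 direction) 4 genes had lower and 4 higher H3K27ac within 5 kb. The shares of all genes with any were 15.8% and 52.1%. Within 50 kb 7 had lower H3K27ac, against 23.9%. For H3K27me3 2 were lower within 5 kb, against 43.8%, and 3 within 50 kb, against 48.7%. The block changed no other count by over 1.5 times. Counts with a list left out, other windows or any 1 FLAG list are given without a share over all genes and describe the 10 genes only. Windows of 25 kb gave 4 genes with higher H3K27ac and 3 Brg1-bound, and windows of 2.5 kb 1 Brg1-bound. Dividing by list totals gave 0 and 1 genes with higher Suz12 within 5 and 50 kb, and joining regions within 1 kb gave 1 within 5 kb. Leaving out FLAG regions under 100 bp gave 1 gene Brg1-bound within 5 kb, *Fgfr1*, and counting any 1 FLAG list gave 7 within 5 kb and 10 within 50 kb. Except where fewer lists or a smaller window set the count, the cause was not tested. With unknown depth and no scores, a region not called may lie just below the threshold.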
